A study of Mus musculus with 10 samples.

Results

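Levels of 9 transcriptional regulators from the Six-family, Eya, Dach, Pax and Gata genes were measured in 5 cell types of the mouse cochlea by bulk RNA-seq of handpicked cells, with 2 libraries for each cell type. The genes were Six2, Six4, Eya1, Eya4, Dach1, Pax2, Pax8, Gata2 and Gata3. They were taken by their symbols from the 34590 genes listed in each of the 10 count files, and all 9 were found. The study asked how far converted hair cells (cHCs), made from supporting cells by forced expression of the transcription factor Atoh1, resemble the supporting cells (SCs) they came from and the endogenous outer and inner hair cells (OHCs and IHCs).

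The libraries of each cell type are called a and b here, and their values are given in that order. In SCs, cHCs and P7 OHCs, library a has a title with a Sample number and fewer counts in genes than library b. Differences within these pairs therefore go together with title form and number of counts, and cannot be told apart from them. SCs were taken at P26, where P counts postnatal days, from mice with Fgfr3iCreER+ and the reporter Rosa26-CAG-loxP-stop-loxP-tdTomato+. The cHCs were taken at P33 from mice that carried Atoh1-HA+ and alpha9 AChR-EGFP+ as well. In both groups tamoxifen switched on Cre in Fgfr3-expressing cells, which include Deiters' and pillar cells, and the CAG promoter then drove tdTomato and, in the cHC mice, the Atoh1-HA transgene. The cHCs were the cells positive for both tdTomato and EGFP. OHCs at P7 and mature OHCs at P22 were from prestin-YFPYFP/+ knock-in mice, according to the labels. For the P7 cells the study's supplementary methods give another line, a prestin-driven inducible Cre with tdTomato, so that their genotype is uncertain. IHCs of the P74 group were picked from Pval-Cre+ mice with the same tdTomato reporter, in which Cre follows parvalbumin. In 3 libraries the age number in the title differs from that of the group, namely 27 for SC a, 21 for P22 OHC a and 75 for IHC b. The titles also put the letter m before the age of P22 OHC a and of both IHC libraries, and f before that of P22 OHC b. The P22 OHC libraries thus differ in both age number and letter. Cell type, age and genotype therefore changed together between these groups, and their parts in any difference cannot be told apart. The SC, cHC and P7 OHC libraries also carry library numbers of 1 series in their titles and the P22 OHC and IHC libraries those of another, so that only cHCs against SCs, P7 OHCs against SCs or cHCs, and IHCs against P22 OHCs were compared within 1 series.

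Six-family proteins are homeodomain transcription factors that bind DNA and recruit Eya proteins as coactivators, while Dach proteins act as corepressors in the same network. Pax proteins bind DNA through a paired domain and Gata proteins through zinc fingers. In the inner ear, Pax2 and Pax8 mark the early otic placode, Eya1 and Gata3 are needed for the ear to form, and mutations of Eya1, Eya4 and Gata3 cause hearing loss in humans.

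The libraries held between 15016129 and 40518766 counts in genes. Levels are given as CPM, the counts scaled to library size, with TMM factors that correct for differences in library composition. A gene was called when its adjusted p was under 0.05 in edgeR's quasi-likelihood test of all 10 libraries. The study calls the libraries biological duplicates, and the labels do not say which animals stood behind each, so the p-values measure the spread between these libraries, part of which may be technical. In bulk samples such as these, fewer cells that express a gene and less RNA per cell cannot be told apart. Libraries of 2 cell types often lay apart without overlap. This held for 42.7% of all genes tested in IHCs against P22 OHCs and for up to 50.4%, in P22 OHCs against SCs. Where a gene that was not called is said below to lie above or below others, it has to be read beside this share.

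The labels were checked against marker genes. The 6 hair cell markers summed to 362 and 360 CPM in the SC libraries and to between 3621 and 9003 CPM in the 8 others. Slc26a5, which encodes prestin, reached 2746 to 3785 CPM in P22 OHCs and at most 1.31 CPM in IHCs, whereas Slc17a8, the vesicular glutamate transporter of IHCs, reached 1761 and 1905 CPM in IHCs. Ocm, the other OHC marker, was at 3157 to 9268 CPM in OHCs and at 239 and 68.6 CPM in IHCs. Atoh1 was at 363 and 1810 CPM in the cHC libraries and at 0 to 6.43 CPM elsewhere, and these counts do not separate the transgene from the endogenous gene. SCs held 1189 and 1961 CPM of the 8 SC markers summed, cHCs 1076 and 823, P7 OHCs 89.4 and 298, P22 OHCs 16.4 and 4.88, and IHCs 874 and 720. All 8 were detected in 7 libraries, while Sox2 was at 0 in both P22 OHC libraries and Fgfr3 was at 0 in IHC b. The IHC libraries thus held both hair cell and SC markers, and each comparison with IHCs has to be read beside this. Gjb2, a gap junction gene of SCs, gave most of the IHC sums, at 611 and 468 CPM. It was at 124 and 393 CPM in SCs. Sox9 was at 95.9 and 64.4 CPM and Gjb6 at 89.8 and 95.4 CPM in IHCs. Fgfr3 was low there, at 17.3 and 0 CPM, as was Prox1, at 2.32 and 7.86 CPM. The cHC pair also differed within itself, since Gjb2 was at 83.3 CPM in cHC a and 1.73 CPM in cHC b and Sox9 at 126 and 16.0 CPM, and Sox10, fixed here as a glial marker, was at 56.9 and 5.66 CPM. Gata2 is also used in blood and vessel cells. The 6 red cell genes summed to between 0.266 and 43.8 CPM, the 5 immune genes to between 0.176 and 20.2 CPM and the 4 endothelial genes to between 0 and 12.1 CPM. Gata1 was at most at 0.0425 CPM, Ptprc at most at 0.176 CPM and Kdr at 0 in all libraries. Tek was at 12 CPM in P22 OHC b and Cdh5 at 2.08 CPM in P7 OHC a, the OHC library of each pair with the higher Gata2. Cdh5 was at 0 in both P22 OHC libraries, and Tek was at 0.201 and 0 CPM in P7 OHCs. The red cell gene Alas2 went the other way in P22 OHCs, at 28.4 CPM in a and 5.72 CPM in b. The part of such cells in the Gata2 levels was not tested.

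Of the 9 genes, 8 passed the filter on low counts and were tested. Pax8 did not pass. Among the 5 cell types taken jointly, 4 of these 8 were called, namely Pax2 (adjusted p = 0.00171), Six2 (0.00786), Gata2 (0.0343) and Six4 (0.0476), where 7.81% of all 16891 genes tested were called. Eya1 (0.113), Gata3 (0.125), Eya4 (0.345) and Dach1 (0.347) were not. Pax2 passed the filter through the cHC libraries alone, and the members were chosen with earlier results of these data known. The count is therefore no test of the members against that share. The panels of levels by library show the shape behind each of these values.

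**Figure D1:**
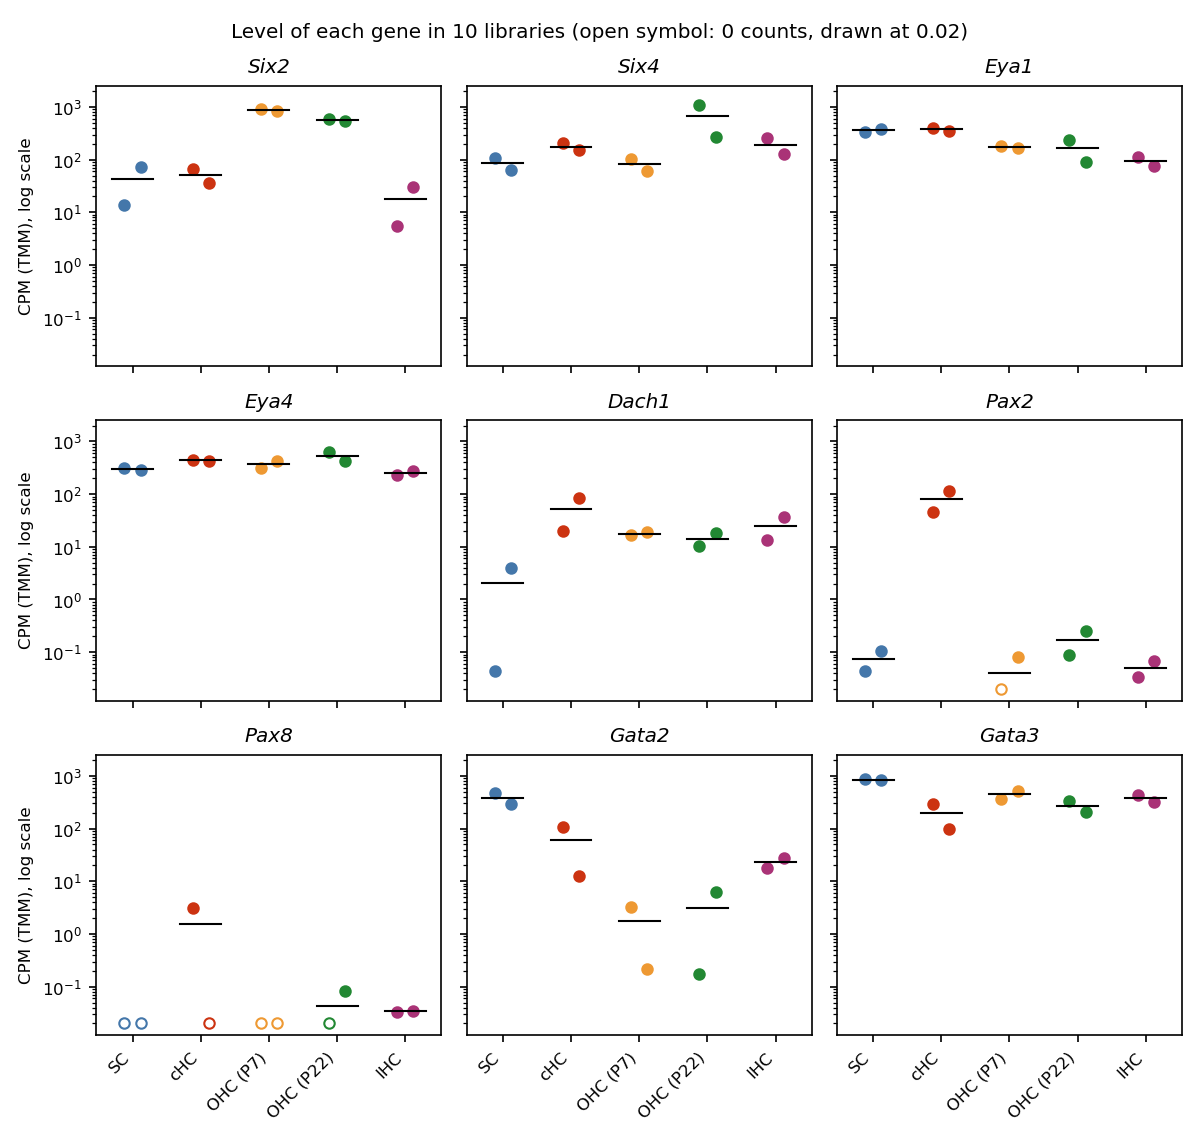
Levels of the 9 genes in the 10 libraries, as TMM-scaled CPM on a log scale, with 1 panel per gene and the 5 cell types along the horizontal axis. Each point is 1 library, the black line is the mean of 2, and open symbols are libraries with 0 counts drawn at 0.02. Pax2 is at 46.2 CPM or more in both cHC libraries and at or under 0.252 CPM in the 8 others, Six2 is highest in the OHC libraries, Gata2 in SCs, and Eya4 stays between 230 and 617 CPM throughout.

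Promoter sequence is shown for Pax2, Six2 and Gata2, the 3 genes with the smallest joint p, because each was highest in another cell type. Of the 9 genes, 8 had entries in the RefSeq promoter table of build GRCm38.p6, with 13 windows in all, and the 250 bases before each start were read. Both strands were searched for 3 short motifs, and no match overlapped another. The letters CAGCTG spell an E-box of the kind bound by Atoh1 and other bHLH proteins. The Gata site searched for was AGATAA, and the Six-type site was TCAGGTT. Among all 32851 windows of this length, 13% held the E-box, 9.99% the Gata site and 3.49% the Six-type site. Matches were found in 3 windows. The E-box began 64 bases before the start in the second of 3 Pax2 windows (chr19:44755502-44755751, plus strand), the Gata site began 98 bases before the start in the Six2 window (chr17:85688255-85688504, minus strand), and the Six-type site began 97 bases before the start in the second Six4 window. Neither Gata2 window held any of the 3 motifs, and the first is shown (chr6:88193641-88193890, plus strand). The Pax2 window shown is the only 1 of its 3 with a match. The shares of all windows are per window, so that a gene with several windows has more places for a match. Capitals mark the matched letters, which describe the sequence and show no binding.
Pax2: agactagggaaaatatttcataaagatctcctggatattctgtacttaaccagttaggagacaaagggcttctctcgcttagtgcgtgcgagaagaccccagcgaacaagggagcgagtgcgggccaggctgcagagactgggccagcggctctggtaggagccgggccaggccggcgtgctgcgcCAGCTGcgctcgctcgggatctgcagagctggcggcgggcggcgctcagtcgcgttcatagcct
Six2: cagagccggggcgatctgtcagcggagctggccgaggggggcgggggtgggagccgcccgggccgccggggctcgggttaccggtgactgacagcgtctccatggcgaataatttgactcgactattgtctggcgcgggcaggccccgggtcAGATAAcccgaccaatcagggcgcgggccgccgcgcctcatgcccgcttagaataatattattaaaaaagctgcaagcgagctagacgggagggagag
Gata2: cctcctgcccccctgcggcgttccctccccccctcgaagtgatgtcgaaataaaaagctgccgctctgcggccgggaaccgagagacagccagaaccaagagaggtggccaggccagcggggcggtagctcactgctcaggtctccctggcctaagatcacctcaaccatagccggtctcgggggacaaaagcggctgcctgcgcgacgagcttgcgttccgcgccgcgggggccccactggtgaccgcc

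Among the Six-family genes, Six2 was highest in OHCs. Six2 (ENSMUSG00000024134; chr17:86083608-86087594 in mm9, minus strand) encodes a homeodomain factor best known for holding kidney progenitors undifferentiated. SCs held 13.9 and 72.0 CPM, cHCs 66.1 and 36.5, P7 OHCs 912 and 823, P22 OHCs 596 and 539, and IHCs 5.52 and 30.6. All 4 OHC libraries lay above all 6 others. The SC pair spanned both cHC libraries, and the IHC pair lay below the cHC pair (log2 difference -1.51 ± 0.84, adjusted p = 0.475). Six2 was 4.34 ± 0.94 log2 units (SE) higher in P7 OHCs than in SCs (adjusted p = 0.0302), and 3.72 ± 0.92 higher in P22 OHCs than in SCs (adjusted p = 0.0307). The log2 difference of IHCs was -5.59 ± 1.0 from P7 OHCs (adjusted p = 0.0459) and -4.98 ± 0.97 from P22 OHCs (adjusted p = 0.034). The difference between the OHC ages was -0.61 ± 0.82 (P22 minus P7, adjusted p = 0.767).

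The call of Six2 between OHCs and cHCs depended on the test and on the libraries fitted. It was 4.08 ± 0.93 log2 units higher in P7 OHCs than in cHCs with an adjusted p of 0.122, and 3.47 ± 0.90 higher in P22 OHCs with an adjusted p of 0.0664. With DESeq2 these p-values were 0.00076 and 0.00182, and with limma-voom 0.0108 and 0.00967. In edgeR with only the 4 libraries compared they were 0.0346 and 0.0444, and without any single SC or IHC library they were 0.0212 to 0.0223 and 0.0129 to 0.0143. With only the 4 libraries compared, 3 of the 4 calls above were lost, with adjusted p-values of 0.0523 for P7 OHCs against SCs, 0.0707 for IHCs against P22 OHCs and 0.0617 for IHCs against P7 OHCs. Several calls also rested on single libraries. Without SC a, the lower of the SC pair, the adjusted p was 0.0795 for P7 OHCs and 0.0892 for P22 OHCs against SCs. Without P22 OHC a it was 0.0659 for P22 OHCs against SCs and 0.0717 for IHCs against P22 OHCs, and without IHC a it was 0.0644 against P22 and 0.0909 against P7 OHCs.

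Six4 (ENSMUSG00000034460; chr12:74201246-74214401, minus strand), a homeodomain factor of muscle and sensory tissue, stood at 108 and 63.0 CPM in SCs and at 204 and 151 in cHCs. P7 OHCs held 105 and 60.1 CPM, P22 OHCs 1068 and 272, and IHCs 256 and 129. It was highest in P22 OHCs, but P22 OHC a was far above P22 OHC b, which itself lay close to IHC a. P22 OHC a had the largest share of counts in its 10 highest genes (41.3%) and the fewest genes detected (14332). TMM factors raised its levels, and without them Six4 was at 623 and 302 CPM in P22 OHCs. For Six2 (347 and 600 CPM) and Eya4 (360 and 481 CPM) the order within this pair turned without TMM factors. Six4 was 2.97 ± 0.72 log2 units higher in P22 OHCs than in SCs (adjusted p = 0.0296). That call was lost without P22 OHC a, when the difference was 1.60 (adjusted p = 0.251), without SC b (0.119) and without SC a (0.0547), limma-voom gave 0.0533, and the 4 libraries compared gave 0.0707. The joint test of Six4 was lost without P22 OHC a (0.293) and without P7 OHC b (0.0604). The difference of P22 from P7 OHCs was 3.02 ± 0.73 with an adjusted p of 0.105, while DESeq2 gave 0.00225.

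Levels of family members were set beside each other after division by exon length, and these shares were not tested. Six2 made up 95.9% and 97.3% of the summed Six2 and Six4 level in P7 OHCs and 59.8% and 84.1% in P22 OHCs. In IHCs its share was 5.43% and 38.6%, and in cHCs 46.3% and 39.2%, while the SC libraries gave 25.5% and 75.3%. The P7 OHC pair lay above all others and the IHC and cHC pairs were below both OHC pairs, whereas the SC libraries lay on either side of the cHC pair.

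The Eya genes, which encode coactivators with phosphatase activity, varied less. Eya4 (ENSMUSG00000010461; chr10:22823974-23069701, minus strand) stood at 313 and 282 CPM in SCs and at 448 and 430 in cHCs. P7 OHCs held 313 and 427 CPM, P22 OHCs 617 and 433, and IHCs 230 and 276. Its levels overlapped or nearly touched between neighbouring cell types, and it was called in none of the 10 comparisons. Its lowest unadjusted p was 0.0307, for IHCs against P22 OHCs (log2 difference -1.05 ± 0.43, adjusted p = 0.279). By mean level P22 OHCs came first and cHCs second, and this order turned when no TMM factor was used.

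Eya1 (ENSMUSG00000025932; chr1:14159035-14300281, minus strand) stood at 342 and 379 CPM in SCs and at 404 and 354 in cHCs. It was at 184 and 166 CPM in P7 OHCs, 241 and 90.5 CPM in P22 OHCs, and 111 and 77.2 CPM in IHCs. Both SC and both cHC libraries thus lay above all 6 libraries of endogenous hair cells, while SCs and cHCs overlapped (cHC minus SC 0.07 ± 0.53, adjusted p = 0.985). No difference of Eya1 was called. The widest were IHCs against cHCs, at -2.01 ± 0.55 (adjusted p = 0.156, DESeq2 0.0319, limma-voom 0.0261), and IHCs against SCs, at -1.94 ± 0.55 (adjusted p = 0.106, DESeq2 0.0291, limma-voom 0.0256). Without P22 OHC a, which entered only the shared estimate of the spread, both passed in edgeR, at 0.0478 and 0.03, and without P22 OHC b the second passed at 0.039.

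Per length, Eya1 made up 51.1% and 56.3% of the summed Eya1 and Eya4 level in SCs and 46.3% and 44.1% in cHCs. It made up 36.0% and 27.1% in P7 OHCs, 27.2% and 16.7% in P22 OHCs and 31.6% and 21.2% in IHCs. The share was highest in SCs, next in cHCs and lower in each library of endogenous hair cells, where the pairs overlapped one another.

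**Figure D2:**
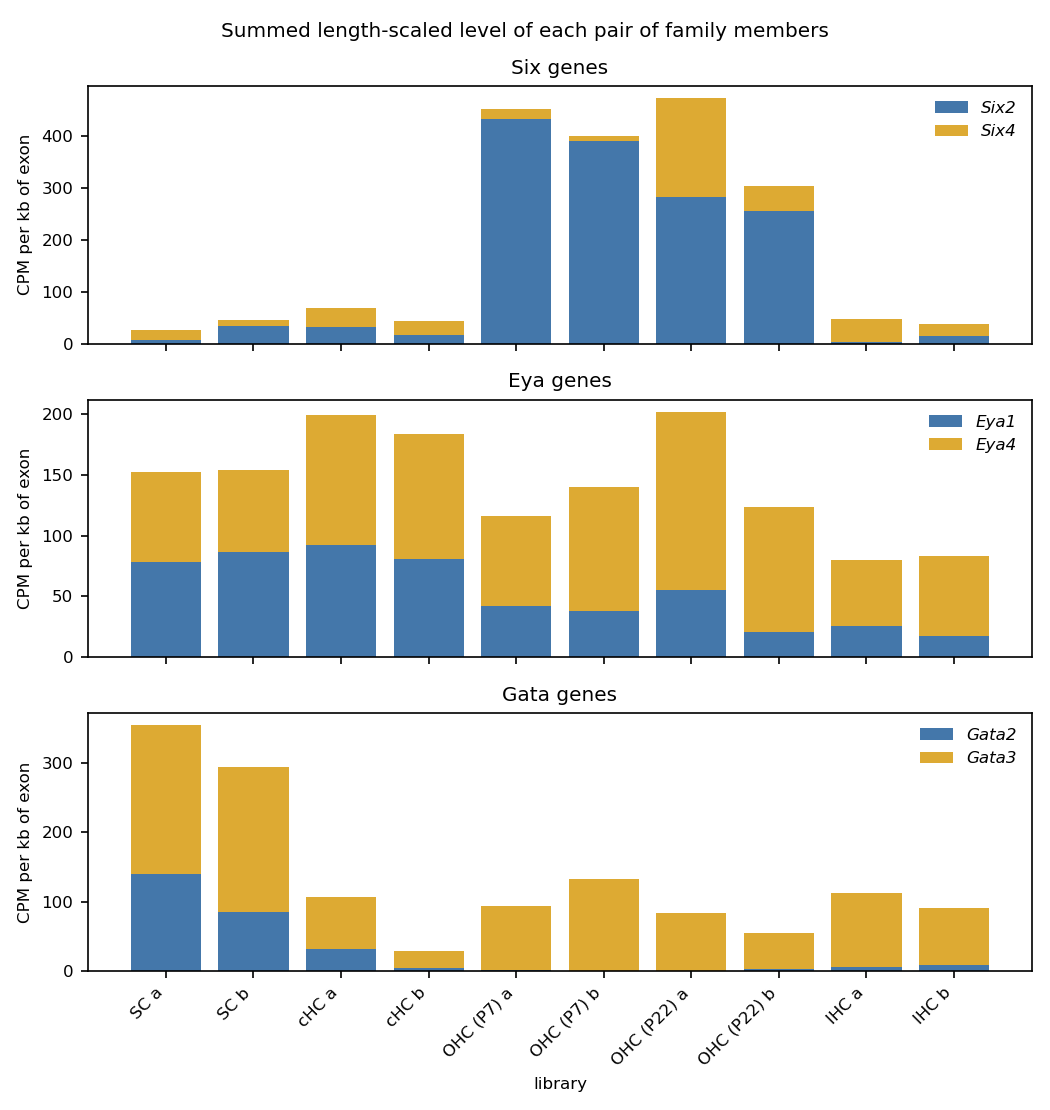
Length-scaled levels of the paired family members in each library, as CPM per kb of exon, with bars stacked from 0. Six2 fills most of the Six-family bar in the P7 OHC libraries (95.9% and 97.3%), Eya1 and Eya4 share the Eya bar about evenly in SCs and cHCs, and Gata2 fills 13.1% to 39.4% of the Gata bar in SCs and cHCs and at most 9.23% elsewhere.

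Dach1 (ENSMUSG00000055639; chr14:98186066-98568984, minus strand), the corepressor of the network, was at 0.0444 and 4.01 CPM in SCs, which were 1 and 151 counts, and at 19.6 and 83.2 CPM in cHCs. It was at 16.6 and 18.9 CPM in P7 OHCs, 10.2 and 17.9 CPM in P22 OHCs and 13.3 and 37.2 CPM in IHCs. Both SC libraries lay below the 8 others. The difference of 4.66 ± 1.72 log2 units between cHCs and SCs had an adjusted p of 0.249, and DESeq2 gave 0.0078. Without SC b, which leaves SCs with a single count, Dach1 passed in P22 OHCs against SCs (adjusted p = 0.0478), where the fit of all libraries gave 0.283.

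Pax2 had reads in cHCs and close to none in the other cell types. Pax2 (ENSMUSG00000004231; chr19:44830539-44912758 in mm9, plus strand) encodes a paired-domain factor of the early ear that is also used in kidney and eye. It was at 46.2 and 114 CPM in cHCs, from 1087 and 4478 counts. The other libraries held 1 and 4 counts in SCs, 0 and 3 in P7 OHCs, 1 and 6 in P22 OHCs and 1 and 2 in IHCs, or at most 0.252 CPM. Neither cHC library was near any other, and the 8 others were at a level that a few counts set. Over both libraries the level in cHCs was 1065 times that in SCs, with an exact 95% interval of 456 to 3281. The ratio was 1521 (520 to 7378) to P7 OHCs, 444 (215 to 1104) to P22 OHCs and 1735 (593 to 8414) to IHCs. These intervals cover counting error only, since amplified reads are not independent molecules.

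In the fit across genes Pax2 was 9.92 ± 1.84 log2 units higher in cHCs than in SCs (adjusted p = 0.0189). The log2 difference from cHCs was -8.77 ± 1.76 in P22 OHCs (adjusted p = 0.0228), -10.54 ± 1.90 in P7 OHCs (adjusted p = 0.0493) and -10.49 ± 1.89 in IHCs (adjusted p = 0.0249). Pax2 passed the filter through the cHC libraries alone, so that its being tested already depended on them. All 4 calls were lost without cHC b, the deeper library with more Pax2, at adjusted p-values of 0.236, 0.178, 0.27 and 0.252 in the same order. Leaving out either SC library (0.116 without SC a and 0.089 without SC b), P22 OHC a (0.123) or P22 OHC b (0.0551), P7 OHC a (0.233) or b (0.156), and IHC a (0.2) or b (0.149) also lost the call against that cell type, as did leaving out cHC a against P7 OHCs (0.0701). In each of these fits an arm of 1 library took its spread from the other groups, and the difference nearest to 0 was -8.01, for P22 OHCs against cHCs without cHC b.

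Other sequence near Pax2 was counted in the same libraries. The annotated transcript 1700039E22Rik, which lies within the Pax2 locus on the opposite strand with no shared exon base, held 143 and 360 counts in cHCs and at most 1 in the others. Gm20395, also on the opposite strand, held 435 counts in cHC b, none in cHC a and at most 1 elsewhere. Neither transcript shares an exon base with Pax2, so that reads within the annotated exons were counted for different genes. The strand setting of the counting is not given in the sources used here, so the strand of these reads is not known. Atoh1 moved with Pax2 within the cHC pair, being higher in cHC b, whereas Sox9 and Gjb2 were lower there. Of the 8 SC markers only Prox1 was higher in cHC b (247 and 293 CPM), and Fgfr3 changed little (458 and 431 CPM). Of the 6 hair cell markers only Otof was lower in cHC b (279 and 161 CPM). The OHC marker Slc26a5 was lower there as well (97.5 and 23.4 CPM). The part of these differences in the Pax2 level was not tested.

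Pax8 (ENSMUSG00000026976; chr2:24276071-24331119, minus strand), which acts with Pax2 in the early ear and in kidney and thyroid, had 72 counts in cHC a and 0 in cHC b. It had 2 counts in P22 OHC b, 1 in each IHC library and 0 in the others. The 72 counts were 3.06 CPM in a single library, and Pax8 was not tested. A count of 0 allows a level of up to 3 counts, which was 0.074 to 0.2 CPM without TMM factors.

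The Gata genes were both highest in SCs. Gata2 (ENSMUSG00000015053; chr6:88143885-88157024, plus strand), a zinc-finger factor also used in blood progenitors and in the developing ear, was at 470 and 287 CPM in SCs. It was at 107 and 12.6 CPM in cHCs, 3.29 and 0.218 CPM in P7 OHCs, 0.176 and 6.18 CPM in P22 OHCs, and 18.2 and 27.9 CPM in IHCs. The SC pair was above all others, every OHC library was below every library of the other cell types, and the IHC pair lay within the wide range of the cHC pair. From cHCs the log2 difference was -5.12 ± 1.64 in P7 OHCs (adjusted p = 0.299, DESeq2 0.00419) and -4.20 ± 1.56 in P22 OHCs (adjusted p = 0.182, DESeq2 0.0137). IHCs differed from SCs by -4.04 ± 1.54 (adjusted p = 0.223, DESeq2 0.0217, limma-voom 0.0383). None of these was called in edgeR. Gata2 fell by 7.79 ± 1.85 on the log2 scale in P7 OHCs relative to SCs (adjusted p = 0.0453) and by 6.87 ± 1.77 in P22 OHCs relative to SCs (adjusted p = 0.0377). Its difference between cHCs and SCs was -2.66 ± 1.45 (adjusted p = 0.412), and limma-voom, which put it at -3.53, gave 0.029. Without SC a the adjusted p was 0.0641 and 0.056 for the comparisons with P7 and P22 OHCs and 0.0509 for the joint test, without P7 OHC b it was 0.095 for P7 OHCs, and without P22 OHC a it was 0.0995 for P22 OHCs.

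The 6 libraries of SCs, cHCs and IHCs had summed SC markers of 720 to 1961 CPM and Gata2 at 12.6 CPM or more, and the 4 OHC libraries had summed markers of 298 CPM or less and Gata2 at 6.18 CPM or less. Within the pairs of SCs, IHCs and both OHC ages, the library with the higher marker sum had the lower Gata2. Only in the cHC pair were both higher in the same library, cHC a. Most of the cHC marker sums came from Fgfr3, at 458 and 431 CPM, and Prox1, at 247 and 293 CPM, of which Prox1 was higher in cHC b. Both were lower in SCs, with Fgfr3 at 167 and 311 CPM and Prox1 at 14.7 and 53.7 CPM. Each of the other SC markers was lower in both cHC libraries than in both SC libraries. The high cHC sums thus rested on Fgfr3 and Prox1. Most of the IHC marker sums came from Gjb2, at 611 and 468 CPM, which was at 124 and 393 CPM in SCs. The 6 mesenchyme genes summed to 704 and 811 CPM in SCs, nearly all from Lum at 683 and 715 CPM. Their sums were 195 and 16.3 CPM in cHCs, 289 and 53.1 CPM in P7 OHCs, 3.08 and 3.37 CPM in P22 OHCs and 39.1 and 130 CPM in IHCs. They were thus highest in SCs and higher in cHC a than in cHC b, as were Gata2 and Gata3. The part of SC or mesenchyme material in the Gata levels was not tested.

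**Figure D3:**
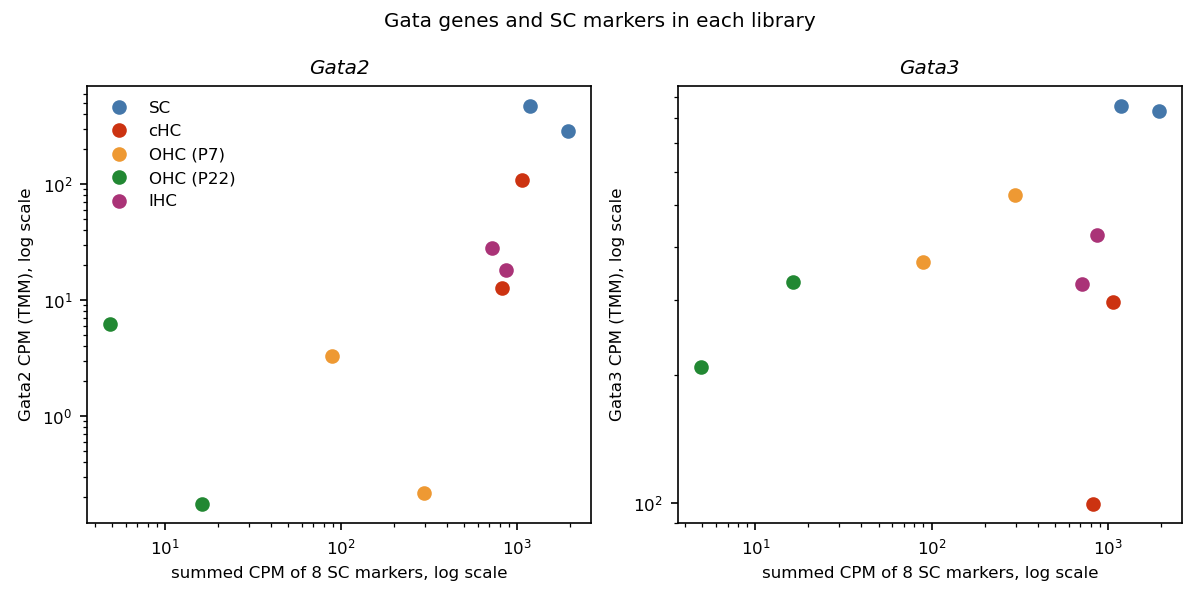
Gata2 (left) and Gata3 (right) in CPM against the summed CPM of 8 SC markers, both axes on log scales, with 1 point per library colored by cell type. The OHC libraries sit at or under 6.18 CPM of Gata2 and at or under 298 CPM of markers, while Gata3 stays between 99.8 and 856 CPM over the whole range of marker sums.

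Gata3 (ENSMUSG00000015619; chr2:9778705-9811661, minus strand), required for the ear and for the survival of its sensory cells and neurons, was at 856 and 833 CPM in SCs. It was at 296 and 99.8 CPM in cHCs, 368 and 528 CPM in P7 OHCs, 331 and 209 CPM in P22 OHCs and 427 and 326 CPM in IHCs. The SC libraries stood above all others, and the lowest was cHC b. No difference of Gata3 was called. The difference between cHCs and SCs was -2.09 ± 0.56 with an adjusted p of 0.107, against 0.0327 in DESeq2, 0.0111 in limma-voom and 0.0303 in edgeR without cHC a. That between P22 OHCs and SCs was -1.64 ± 0.55 (adjusted p = 0.0952, limma-voom 0.0249). The annotated genes 9230102O04Rik on the same strand and Gm13256 on the opposite strand share 1.94% and 3.9% of the Gata3 exon bases, so that reads there could not be assigned with certainty.

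Per length, Gata2 made up 39.4% and 29.0% of the summed Gata2 and Gata3 level in SCs and 30.0% and 13.1% in cHCs. It made up 4.82% and 9.23% in IHCs, 1.05% and 0.049% in P7 OHCs and 0.0632% and 3.39% in P22 OHCs. The SC and cHC pairs overlapped in this share, and both were above the IHC pair, which was above both OHC pairs. Read across all 9 genes per length, the highest of them was Gata3 in SCs (mean of 212 CPM per kb) and IHCs (94.5), Eya4 in cHCs (105) and Six2 in P7 OHCs (411) and P22 OHCs (269).

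The comparisons were also read one at a time over the 8 genes tested. Between cHCs and SCs, 1 of 8 was called (Pax2, higher), where 1.84% of all genes were, and the median log2 difference was 0.41 over the 8 genes and 0.03 over all genes. Between P7 OHCs and cHCs 1 of 8 was called (Pax2, lower in OHCs), where 0.343% of all genes were, and between P22 OHCs and cHCs again Pax2 alone, where 3.18% were. Between P7 OHCs and SCs 2 of 8 were called, Six2 higher and Gata2 lower in OHCs, where 3.41% of all genes were. Between P22 OHCs and SCs 3 of 8 were called, Six2 and Six4 higher and Gata2 lower, where 8.02% of all genes were. Comparisons that share a cell type share its libraries, so that these counts are not independent of one another. Pax2 passed the filter through the cHC libraries alone, and the members were chosen with earlier results of these data known. The shares of all genes are therefore given as background, and the counts are no test of the members against them.

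With IHCs, 1 of 8 was called against cHCs (Pax2, lower in IHCs, with 0.924% of all genes called). Another 1 of 8 was called against P22 OHCs and also against P7 OHCs, in both cases Six2, lower in IHCs, with 1.46% and 0.379% of all genes called. Against SCs 0 of 8 were called by edgeR, where 2.65% of all genes were. There 3 of the 8 had an unadjusted p under 0.05, DESeq2 called 3 (Dach1, Eya1 and Gata2) and limma-voom 2 (Eya1 and Gata2). Between the OHC ages 0 of 8 were called by edgeR, where 0.551% of all genes were. There 1 gene, Six4, had an unadjusted p under 0.05, DESeq2 called 1 and limma-voom 0.

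**Figure D4:**
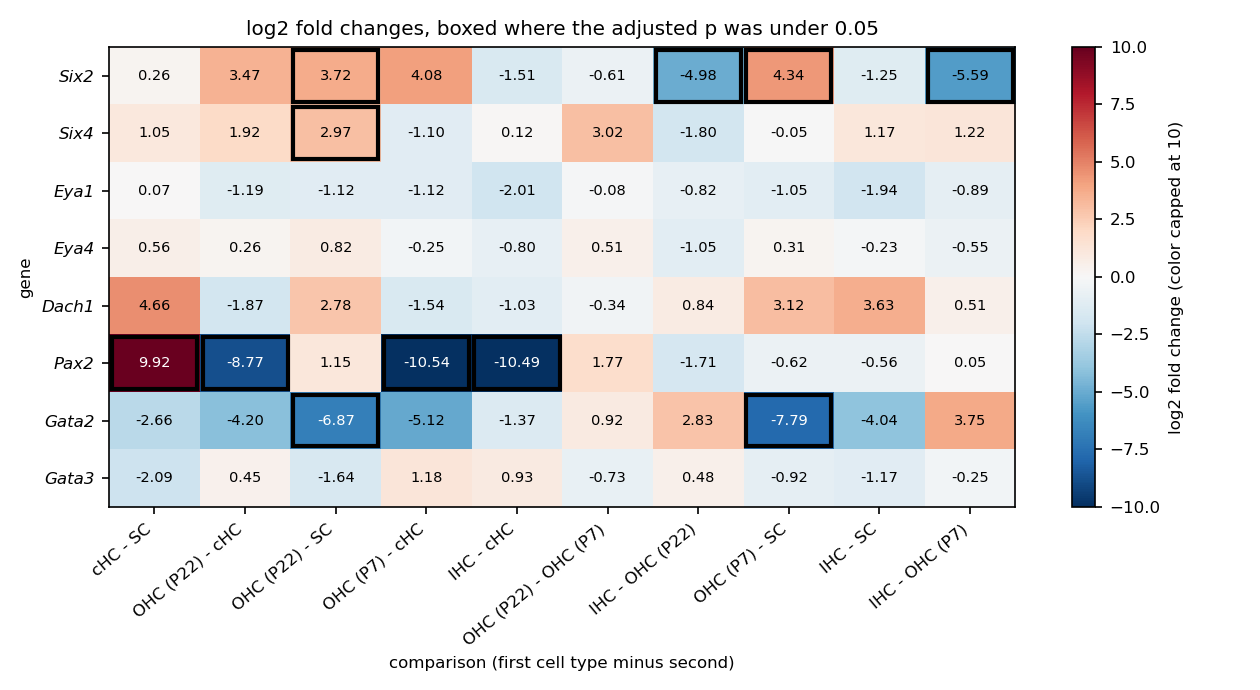
log2 fold changes of the 8 tested genes (rows) in the 10 comparisons of cell types (columns, first minus second), from edgeR's fit of all 10 libraries, with a black box where the adjusted p was under 0.05. Color runs from blue (lower in the first) to red (higher in the first) and is capped at 10. The boxed cells are the 11 called differences, 4 each of Six2 and Pax2, 2 of Gata2 and 1 of Six4, and no cell of Eya1, Eya4, Dach1 or Gata3 is boxed.

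The remaining genes of these families were read from a list of 18. All 18 were listed in the files, 6 were at 0 in every library, 7 passed the filter, and 1 of the 7, Eya2, was called. Eya2, another Eya coactivator, was at 52.8 and 146 CPM in cHCs, 4.09 and 1.61 CPM in P7 OHCs, 0.177 and 0.186 CPM in SCs, 0.101 and 0.0687 CPM in IHCs, and 0 in both P22 OHC libraries. Like Pax2 it was highest in both cHC libraries and higher in cHC b than in cHC a. It was 9.06 ± 1.55 log2 units higher in cHCs than in SCs (adjusted p = 0.0156) and fell by 10.12 ± 1.62 in IHCs relative to cHCs (adjusted p = 0.0191), and it was called lower in P22 OHCs (adjusted p = 0.00788), where both libraries were at 0 and no fold is given. Against P7 OHCs its adjusted p was 0.181. Pax7 was at 15.1 CPM in cHC a and at 0 in the 9 others.

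Of 13 genes for proteins that bind Six-family, Eya, Pax or Gata factors, 11 passed the filter and 1 was called in any comparison. This was Tle2, a Groucho corepressor, which fell by 7.41 ± 1.74 on the log2 scale in P7 OHCs relative to SCs (adjusted p = 0.0441). It was at 10.7 and 42.2 CPM in SCs and at 0.268 and 0.0545 CPM in P7 OHCs. Of 15 other regulators of the developing ear, 6 passed the filter, 4 were at 0 throughout and 3 were called in at least 1 comparison. Tbx2, a T-box factor, was at 272 and 198 CPM in IHCs and at most 13.9 CPM in the others, and it was called in 5 comparisons. It was 10.40 ± 1.56 log2 units higher in IHCs than in cHCs (adjusted p = 0.0149) and 6.87 ± 1.34 higher than in P22 OHCs (adjusted p = 0.0372). Tbx2 was at 0.0425 and 0.279 CPM in cHCs and at 0 in both SC libraries, so that few counts set the size of the fold from cHCs. Zfp503, a zinc-finger repressor, was at 168 and 178 CPM in P7 OHCs and at 0.0336 and 0.103 CPM in IHCs (IHC minus P7 OHC -11.21 ± 2.0, adjusted p = 0.0444). Rorb, a nuclear receptor, was at 1276 and 1917 CPM in IHCs and 225 and 53.1 CPM in cHCs (IHC minus cHC 3.52 ± 0.65, adjusted p = 0.0295). The share of all genes called in at least 1 comparison was not computed. In the joint test 1 of 7 other family genes, 0 of 11 partners and 3 of 6 other regulators were called, where 7.81% of all genes were. The lists were chosen with earlier results of these data known, so that these counts are no test of them.

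Genes whose levels followed each member most closely were found by Pearson's correlation of log2 CPM over the 10 libraries. The closest were Gm626 (r = 0.994), Rtkn2 (0.990) and Gm11225 (0.990) for Pax2, and Dlat (0.958), Lmod3 (0.950) and Kcnj13 (0.937) for Six2. They were Car13 (0.967), Arhgef5 (0.955) and Fpgt (0.952) for Gata2, and Actn4 (0.945), Nfe2l3 (0.918) and Gpx4 (0.916) for Gata3. For the genes that were not called the closest reached similar values, with Scg5 for Dach1 (0.968), Tmem91 for Eya4 (0.951) and Rps21 for Eya1 (0.945), and for Six4 the closest was 4930423O20Rik (0.952). Such values are the highest of 16891 genes over 10 points that share library and cell type, and they are given as a description. Among the 8 members themselves the strongest correlations were -0.75 between Dach1 and Gata3, -0.71 between Six2 and Gata2, -0.68 between Pax2 and Gata3 and 0.61 between Six2 and Eya4.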

How the data were processed

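Cells were picked by hand from dissociated cochleae and their cDNA was amplified before sequencing (NuGEN Ovation V2). The authors trimmed reads with Cutadapt, aligned them to mm9 with STAR and BWA and counted them per gene with HTSeq; CASAVA 1.7 is also named in the submitters' processing notes. The deposited values are raw counts per gene, and rows that name no gene were left out (31.5% to 61.8% of mapped reads named no feature). The strand setting and tool versions otherwise are not given in the sources used here. Amplification without molecular identifiers means that counts are not independent molecules.

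In 4 of 10 records the attached file carried the title of another sample, so each file was assigned by the title in its name. This was checked against the proportions of the study's own normalized columns, whose values were not used otherwise. Counts were tested with edgeR 4.0.16 (R 4.3.3) in 1 model of 5 cell types with TMM factors, filterByExpr and the quasi-likelihood F-test, Benjamini-Hochberg adjusted over 16891 genes at a threshold of 0.05. Values after ± are SEs of log2 fold changes, computed as the fold change divided by the root of F. Intervals of count ratios are exact, at 95%. Exon lengths came from GENCODE vM1 (mm9), and log2 CPM used a prior count of 2. Alternatives were DESeq2 1.42.0, limma-voom (limma 3.58.1), RLE size factors, no filter, only the 4 libraries compared, files as attached, the title form as a term (1 library each of SC, cHC and P7 OHC has a title with a Sample number) and each library left out in turn. The fit was tested on simulated data. Named were all members, the genes of the lists called in any comparison and the 3 genes most correlated with each member tested. The members and lists were chosen with earlier results of these data known. The values of 1 gene of the lists are not reported here.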

Additional observations from a re-analysis of the deposited data

How the results depend on the processing

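No paired analysis was possible because the groups share no replicate numbers. Of the 15 called results (4 joint tests and 11 differences), DESeq2, RLE size factors and no filter kept 15, limma-voom kept 13 (Six4 lost, joint adjusted p = 0.12 and P22 OHCs against SCs 0.0533), and the title form as a term kept 13 (Six4 joint 0.0703, Six2 in IHCs against P7 OHCs 0.0534). Only the 4 libraries compared kept 7 of 11 (lost were Six2 in P7 OHCs against SCs and in IHCs against either OHC age, and Six4 in P22 OHCs against SCs). With both IHC libraries left out, a setting chosen after seeing the data, 8 of 12 were kept (lost were Six4 jointly, 0.0514, Pax2 in P7 OHCs against cHCs, 0.0626, and Gata2 in P22 and P7 OHCs against SCs, 0.0501 and 0.0628). With each library left out in turn, 121 of 150 were kept, 29 lost significance and 0 reversed. Scaling by RLE moved the median of all genes by at most 0.09 in size. With no TMM factor the order of cell types changed for 3 members and the highest cell type for 1 (Eya4). With the files as attached to the records, 0 of 15 calls were kept and 3 reversed, namely Pax2 in cHCs against SCs (-8.45), P22 OHCs against cHCs (1.46) and P7 OHCs against cHCs (9.75), since the attached files put other cell types under these labels.

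Counts of members called also moved. With DESeq2 they were 3 for cHCs against SCs, 3 for P22 OHCs against cHCs, 3 for P7 OHCs against cHCs, 2 for IHCs against cHCs, 1 for P22 against P7 OHCs and 3 for IHCs against SCs. With limma-voom they were 3 for cHCs against SCs and 2 each for P22 OHCs, P7 OHCs and IHCs against cHCs and for IHCs against SCs. With no filter they were 3 each for cHCs against SCs and P22 and P7 OHCs against cHCs, 1 for P22 against P7 OHCs, 2 for IHCs against P22 OHCs, 1 for IHCs against SCs and 2 for IHCs against P7 OHCs. With only the 4 libraries compared they were 2 for P22 and for P7 OHCs against cHCs, 0 for IHCs against either OHC age, 1 for P7 OHCs against SCs and 1 for IHCs against SCs. With the files as attached they were 0 in the joint test and in each comparison that had a call. With both IHC libraries left out they were 2 for P22 OHCs against cHCs, 0 for P7 OHCs against cHCs and 1 for P7 OHCs against SCs, and with the title form 0 for IHCs against P7 OHCs. The calls gained under DESeq2 were of Six2, Gata2, Gata3, Dach1, Eya1 and Six4. Leaving out 1 library gave 3 to 5 in the joint test, 0 to 3 for P22 OHCs against SCs (0 without SC a and without P22 OHC a), 0 to 2 for cHCs against SCs, for P7 OHCs against SCs and for P22 OHCs, P7 OHCs and IHCs against cHCs, and 0 to 1 for P22 against P7 OHCs and for IHCs against P22 OHCs, P7 OHCs and SCs. With 2 libraries per cell type, a difference that missed the threshold does not show that levels were alike.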
